A study of Mus musculus with 9 samples.

Results

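The genes of cholesterol and fatty acid synthesis were followed across 9 one-colour Agilent arrays of transformed mouse pro-B cells. The set held 36 genes, taken as every probe whose gene name in the array files is a listed member or an older alias of one (Msmo1 is printed there as Sc4mol). It had 66 of the 41174 probes and 36 of the 21144 named genes on the array. The rule goes by gene name and holds no measured value, but the set was drawn up with earlier results of these data known. Of the 36 members, 35 were tested among 12039 genes, having a probe that cleared the background by a wide margin on each of the 3 arrays in 1 group or more. The 1 left out was Abca1, a sterol exporter, whose only probe was well above background on 1 EBF1ΔC array and on 0 arrays of Mock and of EBF1wt.

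All cells were pro-B cells transformed by the Abelson murine leukaemia virus (A-MuLV), of genotype Ebf1fl/fl;RERTCre on C57Bl/6, and all were treated with 2 µM 4-hydroxy-tamoxifen, which activates the Cre and deletes the floxed Ebf1. Ebf1 encodes the transcription factor EBF1, which is needed for early B cells. In EBF1wt and EBF1ΔC (3 arrays each) a retrovirus carrying wild-type EBF1 or EBF1DC, with GFP, replaced the deleted gene. Tamoxifen followed transduction by 24 h, GFP+ cells were sorted 5 days after it, and RNA was taken over 2 weeks later still. Mock (3 arrays) was the mock-transduced control, treated with the same drug and harvested 4 days after tamoxifen, before the cells died. The groups therefore differ in sorting and in time in culture as well as in EBF1, and these cannot be told apart. For EBF1wt replicate 3 the sample's source field omits tamoxifen and its description includes it. Nothing in the labels tells separate cultures from repeats of 1 culture, so the spread that the p-values rest on may be technical.

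Mammalian cells make cholesterol from acetyl-CoA through mevalonate, isoprenoids, squalene and lanosterol, and make fatty acids from cytosolic acetyl-CoA through malonyl-CoA. Both routes are switched on by SREBP transcription factors (Srebf1, Srebf2), which the escort protein SCAP carries out of the endoplasmic reticulum when sterol is low and which the INSIG proteins hold back when sterol is high. Oxysterols, made when sterol is plentiful, activate the LXR receptors (Nr1h2 encodes LXRβ), which raise the sterol exporters Abca1 and Abcg1 and the ubiquitin ligase Mylip, which marks lipoprotein receptors for degradation. Dividing lymphocytes use both routes to build membrane.

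SREBPs act at promoters together with NF-Y, which binds CCAAT, and promoter windows from RefSeq (GRCm38.p6, from 250 bases before to 50 after the transcript start) were found for 28 of the 36 members. The 150 bases upstream of the start are shown for 5 genes that were lower than Mock in both other groups and for the regulator Srebf2. They run 5′ to 3′ on the gene's strand. Capitals mark matches to CCAAT (or ATTGG, its complement) and to TCACNCCAC, a form of the sterol regulatory element that SREBPs bind.
Hmgcs1 (chr13:119690201-119690350, plus strand): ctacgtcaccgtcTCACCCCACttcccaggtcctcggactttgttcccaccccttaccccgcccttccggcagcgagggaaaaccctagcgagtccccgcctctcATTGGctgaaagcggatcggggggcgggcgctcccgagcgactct
Mvd (chr8:122443423-122443572, minus strand): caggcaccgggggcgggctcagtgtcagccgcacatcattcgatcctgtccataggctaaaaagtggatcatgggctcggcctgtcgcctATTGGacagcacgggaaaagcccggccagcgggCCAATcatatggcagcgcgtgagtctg
Idi1 (chr13:8885456-8885605, plus strand): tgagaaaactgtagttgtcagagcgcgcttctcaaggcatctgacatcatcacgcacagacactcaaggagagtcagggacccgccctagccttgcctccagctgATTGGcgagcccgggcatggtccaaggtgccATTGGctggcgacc
Msmo1 (chr8:64733579-64733728, minus strand): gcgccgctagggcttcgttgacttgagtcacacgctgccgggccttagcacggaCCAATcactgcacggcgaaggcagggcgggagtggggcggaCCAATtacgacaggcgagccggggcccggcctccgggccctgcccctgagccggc
Mylip (chr13:45389592-45389741, plus strand): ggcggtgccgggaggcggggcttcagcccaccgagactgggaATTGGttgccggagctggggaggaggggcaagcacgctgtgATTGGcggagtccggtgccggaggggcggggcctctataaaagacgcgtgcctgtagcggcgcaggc
Srebf2 (chr15:82147119-82147268, plus strand): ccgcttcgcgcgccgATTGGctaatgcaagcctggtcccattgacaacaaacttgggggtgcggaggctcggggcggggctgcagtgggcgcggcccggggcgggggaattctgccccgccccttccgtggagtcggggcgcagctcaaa

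Within 250 bases upstream and on either strand, 20 of the 28 members (71.4%) held CCAAT, against 37.5% of the 27025 genes with a window and 41.0% of the 9378 such genes that were tested. TCACNCCAC occurred in 1 member, Hmgcs1, at 137 bases before the start, against 1.22% of all genes. The E-box CACGTG was in 6 members (21.4%), against 6.86% of all and 9.82% of tested genes. GGGCGG, the GC box that Sp1 binds, was in 23 members (82.1%), against 35.4% of all and 62.1% of tested genes. The EBF1 core CCCNNGGG was in 3 members (10.7%), against 13.4% of all and 17.7% of tested genes. Among members called lower than Mock, CCAAT was in 10 of 12 with a window in EBF1wt and in 11 of 13 in EBF1ΔC. Among the other members with a window, which include the untested Abca1, it was in 10 of 16 and in 9 of 15. Such a match describes letters in a window and not a bound site. GC-box letters are not marked in the sequences above, and none of these sequences holds CACGTG.

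**Figure D1:**
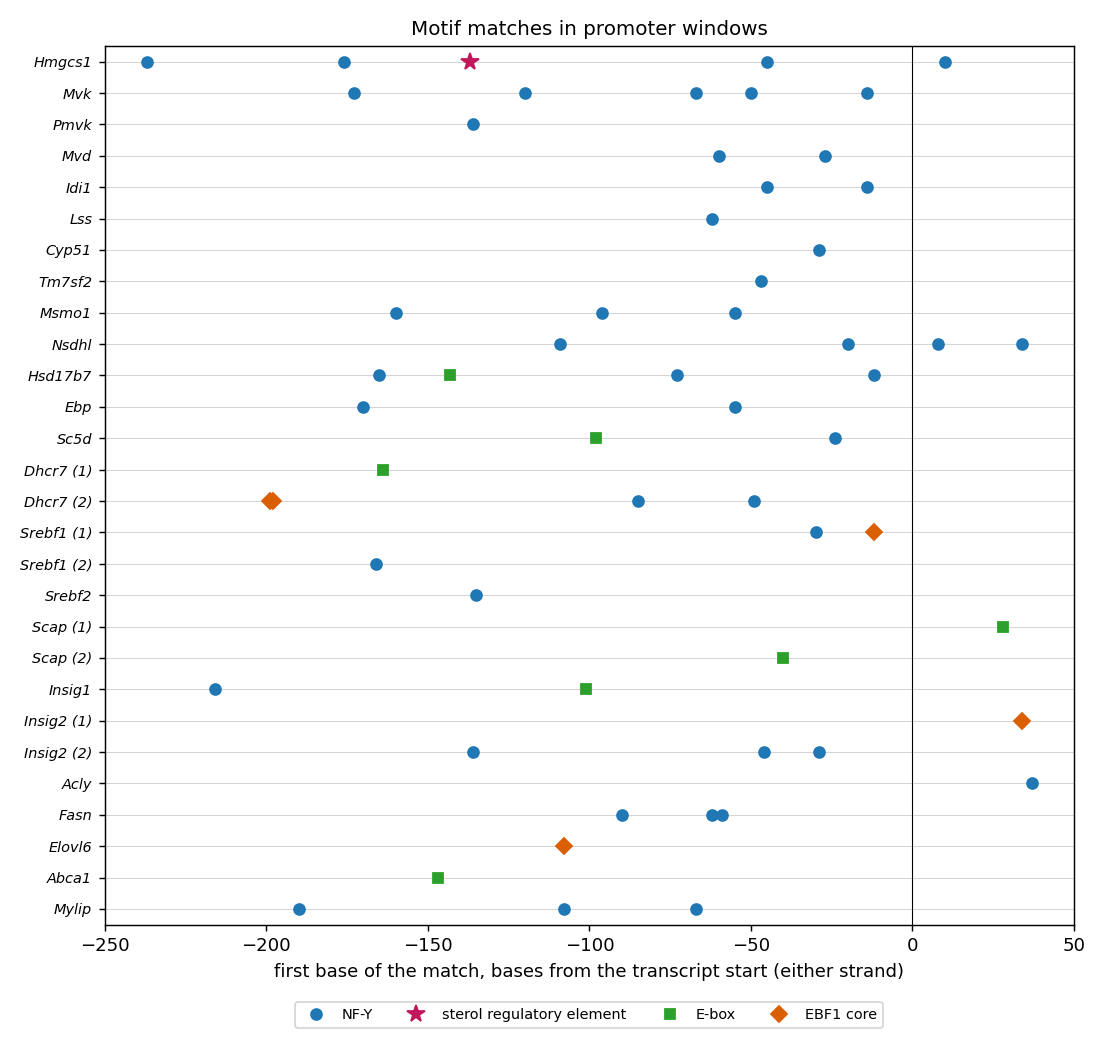
Position of each motif match (x axis, bases from the transcript start, either strand) in the promoter windows of the members that hold at least 1 match; a gene with several windows has a numbered row for each. CCAAT (blue) lay upstream in 20 of the 28 members with a window, and the sterol regulatory element (star) in Hmgcs1 alone.

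The cells were checked before the results were read. Levels are log2 processed signal minus the array's 75th percentile, so 0 is the signal at that percentile, and levels of different probes are not compared. The 75th percentile lay at 384 to 507.7 intensity units and 50.7% to 56.9% of probes were well above background, the Mock arrays being the highest (54.3% to 56.9%). The array median, used for 1 alternative scaling, was far dimmer and close to the background limit. It lay at 21.6 to 25.6 units in Mock, 14.6 to 17.8 in EBF1wt and 14.1 to 22.7 in EBF1ΔC. Of 11 pro-B markers, 10 were well above background on every array and Rag2 on none. The Ebf1 mRNA probe was higher than Mock by 1.61 (SE 0.15) in EBF1wt and 2.35 (SE 0.15) in EBF1ΔC, and a cDNA clone probe for Ebf1, not well above background on any array outside Mock, was at least 6.56-fold and 6.96-fold lower. Such bounds set the brighter group against the lowest signal still well above background on each array. Whether either lies in the deleted exons is not given in the sources used here. The Mock arrays were on slides and a scan day of their own, so slide and scan cannot be told apart from group in any comparison with Mock.

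EBF1wt was first set against Mock. By limma with Benjamini-Hochberg adjustment over all tested genes, 15 of the 35 members were called lower (adjusted p under 0.05 and at least 2-fold) and 0 higher, where 12.8% of all genes were called lower and 6.61% higher. At an unadjusted p under 0.05, 26 members were lower and 5 higher, against 28.6% and 41.5% of all genes. The median member difference was -0.82 log2, against 0.12 over all genes. Scaling the arrays to their median instead added 0.70 to every gene, which put the median of all genes at 0.82, and left 5 members called lower (Abcg1, Acat2, Mvd, Mylip and Scd2) and 3 higher (Elovl6, Nr1h2 and Tm7sf2, chosen for naming after their values were seen). The 9 members with negative differences smaller than that shift turned positive: Mvk, Sc5d, Srebf1, Srebf2, Insig1, Insig2, Stard4, Acly and Scd1. Relative to all genes, the member median was then -0.94. The share of all genes called under that scaling is not given here, so the 5 and 3 are not set against it.

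EBF1ΔC gave 18 of 35 members called lower than Mock and 0 called higher, where 11.9% of all genes were called lower and 6.25% higher. At an unadjusted p under 0.05, 27 members were lower and 6 higher, against 28.5% and 39.3% of all genes. The median member difference was -1.05 log2, against 0.10 over all genes. With median scaling, which added 0.55 to every gene and put their median at 0.65, 8 were called lower and 2 (Elovl6 and Fads1) higher, again without a share of all genes to set beside them. Insig2, Stard4 and Acly turned positive, and the member median relative to all genes was -1.15. EBF1wt and EBF1ΔC were set against the same Mock arrays, so their results are given side by side and are not independent of each other. In bulk RNA, fewer expressing cells and less RNA per cell cannot be told apart.

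The arrays of Mock and EBF1wt did not overlap for 33 of 35 members, against 72.6% of all genes, and those of Mock and EBF1ΔC for 33, against 71.7%. In each case 27 of the 35 members lay below every Mock array, against 29.7% and 30.3% of all tested genes. The other 6 of the 33 lay above, against the remainder of the 72.6% and 71.7%. Among all genes more lay above than below.

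**Figure D2:**
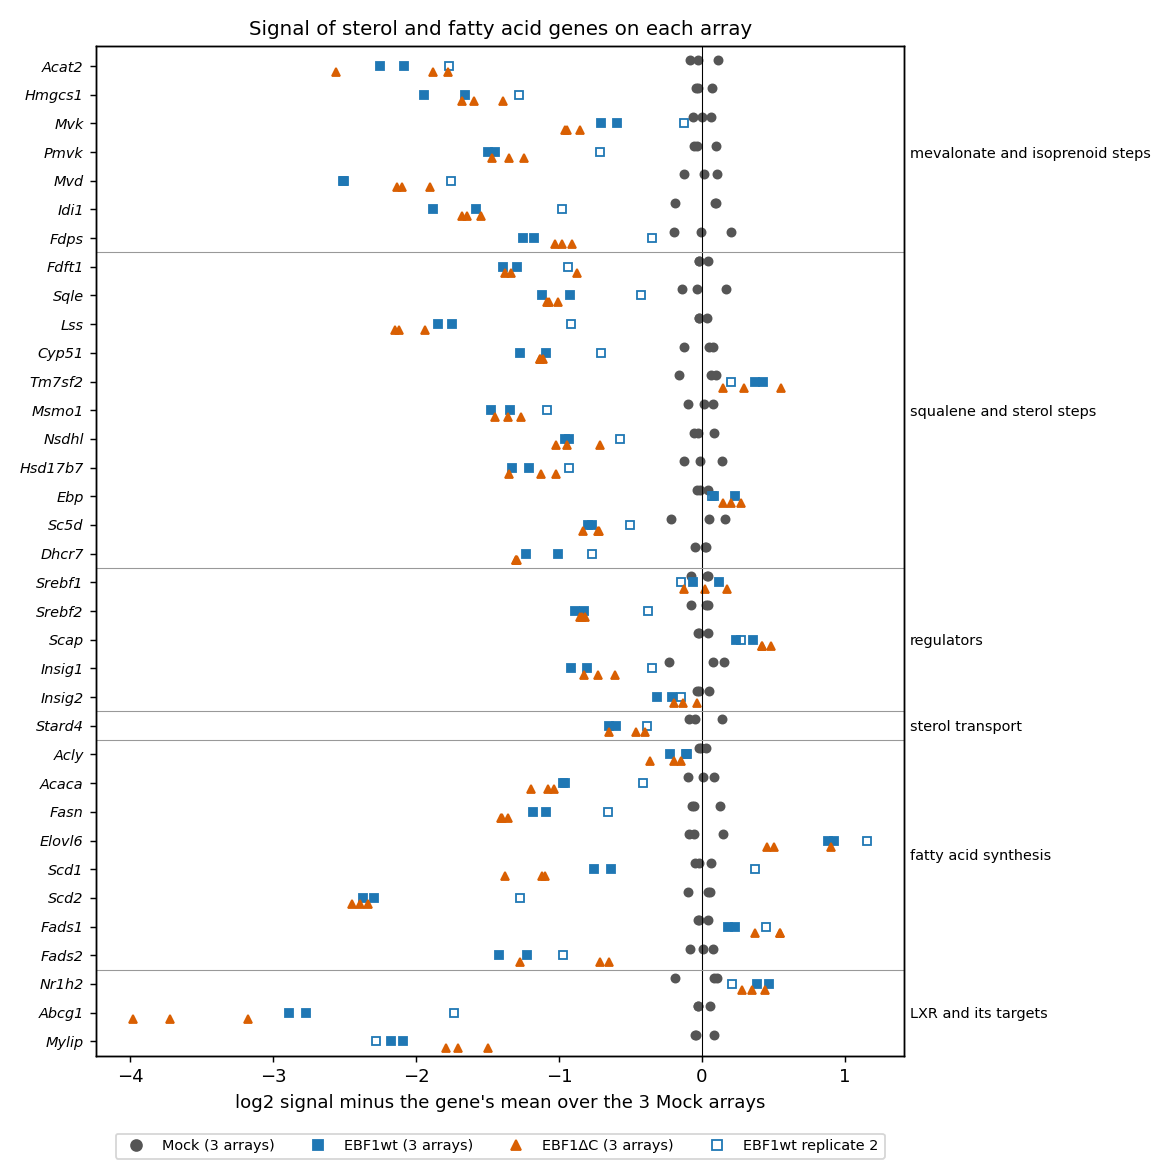
Signal of each of the 35 tested members on each array, as log2 signal minus the gene's own mean over the 3 Mock arrays (x axis); grey circles are Mock, blue squares EBF1wt (open for replicate 2) and orange triangles EBF1ΔC. Mock arrays stand apart for 33 of 35 members in each comparison (all tested genes: 72.6% and 71.7%). Of the 35, 27 lie below every Mock array (all tested genes: 29.7% and 30.3%) and 6 above, where among all tested genes more lie above than below. EBF1wt replicate 2 is the highest of its group for 29 members.

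Other measured features also differed between the groups, not all of them in 1 direction from Mock. The summed level of 9 proliferation markers (as multiples of the 75th percentile) was 171 to 199 on Mock arrays, 266 to 275 in EBF1wt and 266 to 274 in EBF1ΔC, with 9 of 9 above background in every group. That of 7 p53 and cell death genes was 27.9 to 28.8, 38.6 to 42.0 and 40.5 to 43.6, with 7 of 7 above background. Of these 7, 3 had negative differences from Mock in each group, against 42.8% and 43.5% of all genes. The 11 pro-B markers summed to 162 to 167 in Mock, 783 to 830 in EBF1wt and 733 to 780 in EBF1ΔC. Myeloid markers summed to 0.81 to 0.89, 0.62 to 2.82 and 8.11 to 15.6, with Adgre1, Elane and Mpo not above background on any array. Of the 7, 2 to 4 were above on Mock arrays and 2 on every array with EBF1, where Csf1r and Itgam were at none. The 2 tested myeloid markers went opposite ways from Mock, at -1.88 and 2.06 in EBF1wt and at -1.24 and 5.16 in EBF1ΔC. T and NK markers summed to 5.40 to 6.38, 2.76 to 5.54 and 9.75 to 11.4, so the EBF1wt range overlapped Mock. Of these 7 markers, 5 to 7 were above background on Mock arrays, 3 in EBF1wt and 3 to 4 in EBF1ΔC. Cd247, Cd3g and Nkg7 were above background on no array with EBF1. Of the 5 tested T and NK markers, 5 had negative differences in EBF1wt and 3 in EBF1ΔC, against 42.8% and 43.5% of all genes. Erythroid and stromal sums stayed at or under 0.14. Their part in the member differences was not tested.

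Of the 7 genes of the mevalonate and isoprenoid steps, 5 were called lower than Mock in each group, against 12.8% and 11.9% of all genes. All 7 had negative differences, against 42.8% and 43.5% of all genes. The median differences were -1.48 in EBF1wt and -1.56 in EBF1ΔC. Acat2 condenses acetyl-CoA to acetoacetyl-CoA, and Hmgcs1 adds the next acetyl unit. Mvd decarboxylates mevalonate diphosphate, and Idi1 isomerises the isopentenyl unit that results. On Mock arrays 1, 2 and 3, Mvd (chromosome 8, 124957750 to 124957809, mm9, as the files place the probe) read 2.61, 2.38 and 2.52. It read -0.0012, 0.75 and -0.0037 on EBF1wt arrays and 0.41, 0.60 and 0.37 on EBF1ΔC arrays. All 6 arrays with EBF1 lay below the lowest Mock array, and Mvd fell by 2.26 (SE 0.19, adjusted p = 2.7e-05) in EBF1wt and by 2.05 (adjusted p = 4.9e-05) in EBF1ΔC by limma.

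Hmgcs1 (chromosome 13_random, 114807 to 114866) read 5.15, 5.26 and 5.16 in Mock, 3.53, 3.91 and 3.24 in EBF1wt and 3.59, 3.80 and 3.51 in EBF1ΔC. Its differences were -1.63 and -1.56 (SE 0.16 each, limma adjusted p = 5.1e-05 and 6.9e-05). The groups with EBF1 overlapped each other and not Mock. Idi1 (chromosome 13, 8891386 to 8891445) read 4.66, 4.65 and 4.37 in Mock, 2.68, 3.58 and 2.98 in EBF1wt and 3.02, 2.88 and 2.92 in EBF1ΔC. It fell by 1.48 and 1.62 (SE 0.20 each, limma adjusted p = 0.00033 and 0.00022), with the EBF1wt arrays the more spread.

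Acat2 (chromosome 17, 13136497 to 13136556) read -1.13, -1.18 and -0.99 in Mock, -3.18, -2.87 and -3.35 in EBF1wt and -3.66, -2.98 and -2.88 in EBF1ΔC, with no overlap with Mock. It fell by 2.03 and 2.07 (SE 0.21 each). Normexp (offset 50) and quantile normalisation together gave -0.66 and -0.70 and the authors' deposited values -0.63 and -0.67, all short of 2-fold, so the call was lost. Pmvk, the phosphomevalonate kinase, was called lower in both groups, at -1.22 and -1.36 (SE 0.19). Mvk, the mevalonate kinase (-0.47 and -0.92), and Fdps, which makes farnesyl diphosphate (-0.92 and -0.97), had adjusted p under 0.05 and were short of 2-fold.

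The 11 genes from squalene to cholesterol were called lower in 6 cases in EBF1wt and 7 in EBF1ΔC, against 12.8% and 11.9% of all genes. Their medians were -1.001 and -1.13. Lss, which cyclises oxidosqualene to lanosterol (chromosome 10, 76015992 to 76016051), read 1.17, 1.17 and 1.23 in Mock, -0.56, 0.27 and -0.66 in EBF1wt and -0.96, -0.93 and -0.75 in EBF1ΔC. It fell by 1.504 and 2.07 (SE 0.22 each, limma adjusted p = 0.00041 and 8e-05), and its EBF1ΔC arrays lay below all EBF1wt arrays. Msmo1, the C4-methyl sterol oxidase, fell by 1.30 and 1.36 (SE 0.11). Fdft1, which makes squalene, was called lower in both groups (-1.21 and -1.20), as were Hsd17b7, a ketosteroid reductase (-1.15 and -1.16, but -0.98 and -0.96 as the mean of its probes, short of 2-fold), Cyp51, the lanosterol demethylase (-1.02 and -1.13), and Dhcr7, the last reductase of 1 branch (-1.001 and -1.30).

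The EBF1wt calls of Cyp51 and Dhcr7 stood at the 2-fold limit, and each was lost when Mock replicate 1, Mock replicate 2, EBF1wt replicate 1 or EBF1wt replicate 3 was left out, with values from -0.90 to -0.998 for Cyp51 and from -0.89 to -0.999 for Dhcr7. Of the dimmer Cyp51 probes, 1 was called lower in both groups (-1.33 and -1.24) and 1 in neither (-0.69 and -0.95). The dimmer Dhcr7 probe was called lower in both (-1.09 and -1.38). Sqle, the squalene epoxidase, was called in EBF1ΔC alone (-0.82 and -1.05), and its call ended at -0.97 without Mock replicate 1. Nsdhl, a sterol decarboxylase (-0.82 and -0.89), and Sc5d, a desaturase (-0.69 and -0.76), had adjusted p under 0.05 and were short of 2-fold. Tm7sf2, a sterol reductase, stood at 0.33 in both, and Ebp, the sterol isomerase, at 0.13 and 0.21. These last 2 were the only sterol enzymes with positive differences in the main scaling.

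**Figure D3:**
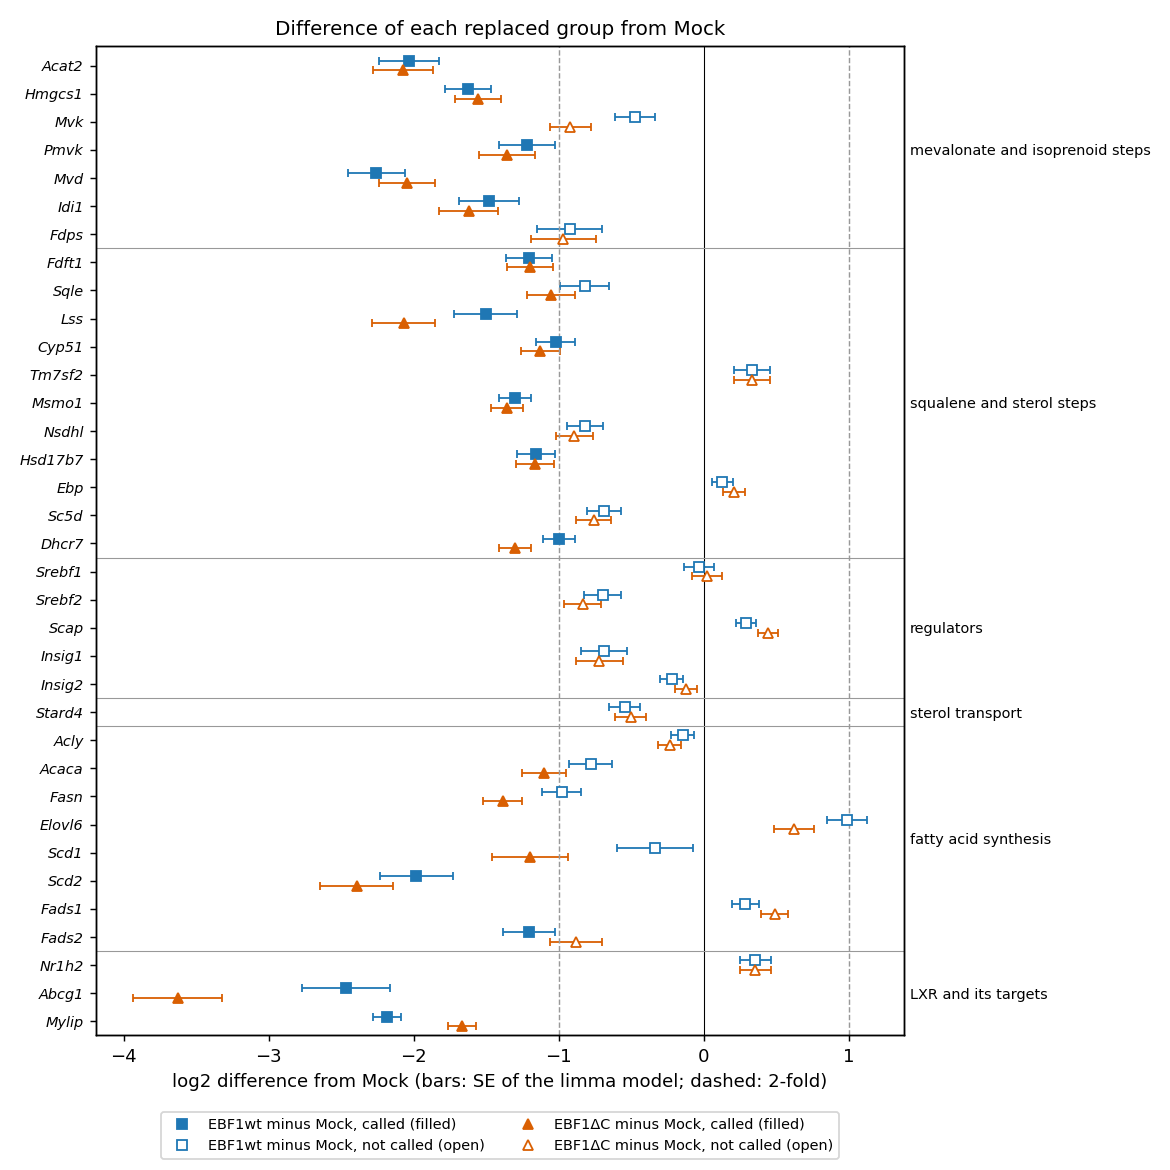
Difference of each tested member from Mock (x axis, log2; bars are the SE of the limma model over 9 arrays), by role; blue squares EBF1wt, orange triangles EBF1ΔC, filled where called, dashed lines at 2-fold. Called members are all to the left of 0, 15 in EBF1wt and 18 in EBF1ΔC (all tested genes: 12.8% and 11.9% called lower), and the 5 regulators are all open.

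The regulators were not called in either comparison, 0 of 5 by limma, with medians of -0.22 and -0.12. Of all genes, 12.8% and 11.9% were called lower and 6.61% and 6.25% higher. At an unadjusted p under 0.05, 3 of them were lower and 1 higher in EBF1wt, against 28.6% and 41.5% of all genes. In EBF1ΔC 2 were lower and 1 higher, against 28.5% and 39.3% of all genes. Srebf2, the main activator of sterol genes (chromosome 15, 82035695 to 82035754), read 5.25, 5.15 and 5.27 in Mock, 4.40, 4.85 and 4.34 in EBF1wt and 4.39, 4.41 and 4.37 in EBF1ΔC. Its differences were -0.70 and -0.84 (SE 0.13, limma adjusted p = 0.0015 and 0.00062), with no array overlapping Mock. Quantile normalisation took the EBF1ΔC value past 2-fold, to -1.05, and median scaling took the EBF1wt value to 0.0088, where every gene moved by 0.70.

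Srebf1, which favours fatty acid genes, read 4.12, 4.00 and 4.12 in Mock, 4.02, 3.93 and 4.20 in EBF1wt and 4.26, 4.10 and 3.96 in EBF1ΔC. The 3 groups overlapped, and the differences of -0.03 and 0.02 had 95% intervals of -0.27 to 0.21 and -0.21 to 0.26. Insig1, itself a known SREBP target, read -0.79, -0.40 and -0.48 in Mock, -1.36, -0.90 and -1.47 in EBF1wt and -1.16, -1.38 and -1.28 in EBF1ΔC. Its values lay below Mock on all 6 arrays, by -0.69 and -0.72 (SE 0.16, limma adjusted p = 0.0053 and 0.0045). Median scaling took the EBF1wt difference of Insig1 to 0.02.

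Insig2 read 1.26, 1.33 and 1.24 in Mock, 1.06, 1.13 and 0.96 in EBF1wt and 1.14, 1.24 and 1.08 in EBF1ΔC, differences of -0.22 and -0.12. Scap read 5.11, 5.18 and 5.10 in Mock, 5.37, 5.41 and 5.49 in EBF1wt and 5.62, 5.56 and 5.55 in EBF1ΔC, differences of 0.29 and 0.44 (SE 0.07, limma adjusted p = 0.0049 and 0.00056). Scap thus ordered the 3 groups without overlap, at small size. Stard4, a sterol carrier of the cytosol, was lower at -0.55 and -0.50 (SE 0.11), short of 2-fold in both groups.

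Fatty acid genes were called lower in 2 of 8 cases in EBF1wt (Scd2 and Fads2) and 4 of 8 in EBF1ΔC (Scd2, Fasn, Scd1 and Acaca). Of all genes, 12.8% and 11.9% were called lower. The medians of the 8 were -0.56 and -0.99. Scd2, a stearoyl-CoA desaturase (chromosome 19, 44381024 to 44381083), read 6.15, 6.17 and 6.01 in Mock, 3.74, 4.83 and 3.81 in EBF1wt and 3.66, 3.71 and 3.77 in EBF1ΔC. EBF1wt replicate 2 stood about midway between Mock and the other arrays, and Scd2 fell by 1.98 and 2.39 (SE 0.25, limma adjusted p = 0.00022 and 8.6e-05). The related desaturase Scd1 read 3.05, 2.94 and 2.97 in Mock, 2.23, 3.36 and 2.35 in EBF1wt and 1.61, 1.86 and 1.89 in EBF1ΔC. There EBF1wt replicate 2 lay above Mock, and the differences were -0.34 (adjusted p = 0.28) and -1.20 (adjusted p = 0.0039, limma).

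Fasn, the fatty acid synthase, was at -0.98 and -1.39 (SE 0.13), and Acaca, the acetyl-CoA carboxylase that commits carbon to fatty acids, at -0.78 and -1.10 (SE 0.15). The EBF1ΔC call of Acaca was lost with normexp and quantile normalisation together (-0.90) and with the authors' deposited values (-0.89). These values are of its brightest probe. Its dimmer kept probes were all called lower, at -1.30 to -2.18 in EBF1wt and -1.36 to -2.48 in EBF1ΔC. Fads2, a desaturase of polyunsaturated fatty acids, was at -1.20 and -0.88, and its neighbour in function Fads1 at 0.29 and 0.49. Acly, which makes cytosolic acetyl-CoA from citrate, was near Mock, at -0.15 and -0.23. Elovl6, the elongase of palmitate, had the highest difference of any member, 0.99 in EBF1wt (SE 0.14, limma adjusted p = 0.00035) and 0.62 in EBF1ΔC, short of 2-fold in both and past it with median scaling (1.69 and 1.17).

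The LXR targets Abcg1 and Mylip were called lower in both groups, Abcg1 with the lowest difference of the set. Abcg1, a sterol exporter (chromosome 17, 31252580 to 31252639), read 4.45, 4.45 and 4.53 in Mock, 1.59, 2.74 and 1.71 in EBF1wt and 0.76, 1.30 and 0.50 in EBF1ΔC. The 3 groups did not overlap, and Abcg1 fell by 2.47 in EBF1wt and by 3.63 in EBF1ΔC (SE 0.31, limma adjusted p = 0.00019 and 2.6e-05). Mylip (chromosome 13, 45506979 to 45507038) read 2.83, 2.95 and 2.82 in Mock, 0.78, 0.59 and 0.69 in EBF1wt and 1.08, 1.16 and 1.37 in EBF1ΔC. It also separated the 3 groups, in another order, and fell by 2.18 and 1.66 (SE 0.10, limma adjusted p = 7.1e-07 and 3.5e-06).

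Nr1h2 read 2.39, 2.10 and 2.37 in Mock, 2.76, 2.50 and 2.67 in EBF1wt and 2.73, 2.57 and 2.64 in EBF1ΔC. Its differences were 0.35 and 0.36 (SE 0.11), short of 2-fold, and 1.06 in EBF1wt with median scaling. The exporter and the ligase were thus lower than Mock and the LXRβ transcript was not, under the main scaling and the median scaling alike.

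A further 49 genes of these pathways, none of them a member, gave 39 tested. In EBF1wt, 3 of the 39 were called lower and 2 higher, against 12.8% and 6.61% of all genes. In EBF1ΔC, 7 were called lower and 2 higher, against 11.9% and 6.25% of all genes. The medians of the 39 were 0.09 and -0.05, against 0.12 and 0.10 over all genes. The 2 higher in each were Gpam, which starts glycerolipid synthesis, at 2.56 and 2.41 (SE 0.07), and Acsl1, an acyl-CoA synthetase, at 1.23 and 1.81 (SE 0.08). Acss2, the acetyl-CoA synthetase of the cytosol, was called lower in EBF1ΔC at -1.60 (SE 0.16), and Ncoa3, a nuclear receptor coactivator, in both at -1.16 and -1.21 (SE 0.12). The other 2 called lower in EBF1wt were named after their values were seen. Lpin1, a phosphatidate phosphatase, was well above background on 0 of 3 EBF1wt arrays and at least 3.31-fold lower than Mock. Vldlr, a lipoprotein receptor, was at -1.39 (SE 0.44), with 1 of 3 EBF1wt arrays well above background. Lpin1 and Vldlr passed the background filter through a group other than EBF1wt, so a lower level in EBF1wt is partly set by that filter.

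Several members were read by more than 1 probe, and the probes did not give 1 size. Beside the brightest probe of each gene, on which the values above rest, 29 further probes of 19 members were kept, and all 29 had the sign of the brightest probe in both comparisons. Of all 64 kept member probes, 32 were called lower than Mock in EBF1wt and 37 in EBF1ΔC, against 17.4% and 16.3% of all 22348 kept probes. In each comparison 6 of the 29 fell further than the brightest probe by over 1 log2.

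Of these 6, 4 were designed on cDNA clones. The Fdps clone probe (chromosome 3, 88903026 to 88903085) read 0.48, 1.04 and 0.74 in Mock, -3.49, -3.17 and -3.10 in EBF1wt and -2.98, -2.69 and -3.34 in EBF1ΔC, so it fell by 4.00 and 3.76 (SE 0.20) where the brightest probe gave -0.92 and -0.97. The Nsdhl clone probe (chromosome X, 70186412 to 70186471) fell by 3.46 and 3.55 (SE 0.27) where the brightest gave -0.82 and -0.89. The Hmgcs1 clone probe, well above background on 0 of 3 EBF1wt and 1 of 3 EBF1ΔC arrays, was at least 19.9-fold lower in EBF1wt and measured -4.53 in EBF1ΔC. The Acly clone probe, well above on 2 of 3 and 0 of 3, measured -1.70 in EBF1wt and was at least 3.68-fold lower in EBF1ΔC. The Hmgcs1 and Acly clone probes were kept through their Mock arrays alone, so a lower level elsewhere is partly set by the background filter. The clone probe of Sc5d did not fall further, at -0.64 and -0.61 against -0.69 and -0.76.

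The other 2 were probes of Acaca, at -2.11 and -2.18 in EBF1wt where the brightest gave -0.78, and at -2.32 and -2.48 in EBF1ΔC where it gave -1.10. The mm9 positions are those in the array files, and whether each probe lies in an exon, an intron or a UTR was not analysed here. The pattern was not particular to these genes. Over 995 clone probes of 888 genes that also had a probe on a RefSeq transcript, the clone probe was lower by over 1 log2 for 50.6% in EBF1wt and 47.8% in EBF1ΔC, and higher by over 1 log2 for 1.91% and 1.71%.

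**Figure D4:**
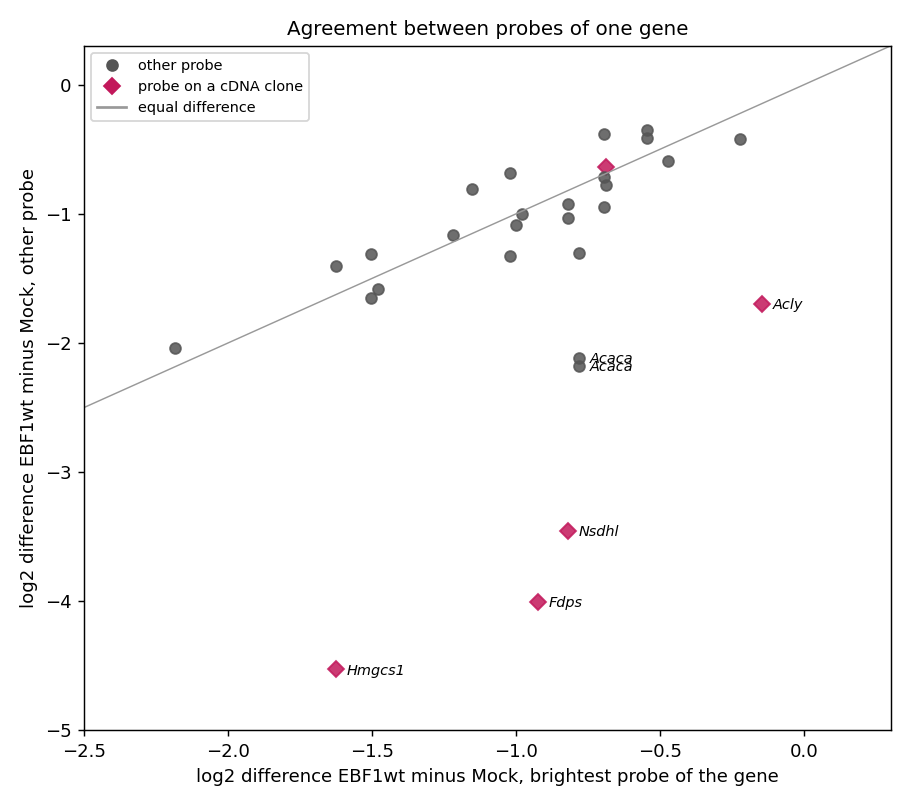
Difference EBF1wt minus Mock of each of the 29 further probes (y axis, log2) against that of the gene's brightest probe (x axis, log2); diamonds are probes on cDNA clones and the line marks equal difference. The Hmgcs1 diamond is the measured value, a probe not well above background in EBF1wt. All points are below 0 on both axes, and the 6 named points lie over 1 log2 below the line.

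EBF1ΔC and EBF1wt differed less from each other than either did from Mock. By limma, 0 of 35 members were called, against 2.71% of all genes (1.38% higher and 1.33% lower). At an unadjusted p under 0.05, 9 members differed, 7 lower and 2 (Mylip and Scap) higher in EBF1ΔC, against 13.8% and 11.4% of all genes. The median member difference was -0.05, against -0.01 over all genes. The 95% interval lay within 2-fold for 32 of 35 members and reached it for Abcg1, Scd1 and Lss. The arrays of the 2 groups did not overlap for 9 of 35 members, against 30.7% of all genes.

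Mylip was the 1 member with adjusted p under 0.05 (limma, 0.015), where 9.03% of all genes passed that limit alone, and was higher in EBF1ΔC by 0.52 (95% interval 0.30 to 0.74), which is short of 2-fold. Every EBF1ΔC array lay above every EBF1wt array. Within slide 2 the difference was 0.78 and within slide 5 it was 0.39. The adjusted p was above 0.05 with median scaling (0.36, adjusted p = 0.26), with no filter on dim probes (adjusted p = 0.056), with only the 2 groups fitted (0.054) and with slide as a fixed block (0.58, adjusted p = 0.16). The fixed block compares the EBF1 forms within slides 2 and 5 alone. It and the fit of only 2 groups leave fewer residual degrees of freedom than the main fit.

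Abcg1 was lower in EBF1ΔC by -1.16 (95% interval -1.86 to -0.46, limma adjusted p = 0.051). This is over 2-fold and just misses the call. The difference was -0.80 without EBF1wt replicate 2. The values within slides were -2.24 on slide 2, which holds that array, and -0.95 on slide 5. Abcg1 was called under 7 of the other settings, among them the replicate block (adjusted p = 0.044), normexp with quantile (-1.03, adjusted p = 0.020) and the authors' deposited values (-1.06, adjusted p = 0.026). It was not called under the rest. Among these were no filter on dim probes (adjusted p = 0.14), only the 2 groups fitted (0.13), slide as a fixed block (-1.60, adjusted p = 0.12) and array weights (-0.84, adjusted p = 0.056).

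Scd1 was at -0.86 (95% interval -1.46 to -0.26, limma adjusted p = 0.080), and -0.51 without EBF1wt replicate 2, with -1.47 and -0.74 within slides 2 and 5. Lss was at -0.57 (-1.06 to -0.07), with -1.02 and -0.30 within slides. Fasn and Mvk were at -0.41 and -0.45. Hmgcs1 gave 0.07 (-0.29 to 0.43), -0.40 on slide 2 and 0.35 on slide 5, so its sign differed between slides. Srebf1 and Srebf2 gave 0.06 and -0.14, and the other regulators with Nr1h2 lay between -0.03 and 0.15.

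EBF1wt replicate 2 stood apart for these genes as a whole. It was the highest of the 3 EBF1wt arrays for 29 of 35 members, against 38.6% of all genes, and the lowest for 5. Its median member level was 2.35, against 1.97 and 2.08 on the other EBF1wt arrays, 2.65 to 2.88 in Mock and 1.78 to 1.90 in EBF1ΔC. Without it, EBF1wt against Mock gave 18 called members and a median of -1.02, and EBF1ΔC against EBF1wt a median of 0.05. The member median within slide 2, where it stood with EBF1ΔC replicate 3, was -0.40, and within slide 5 it was 0.05.

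**Figure D5:**
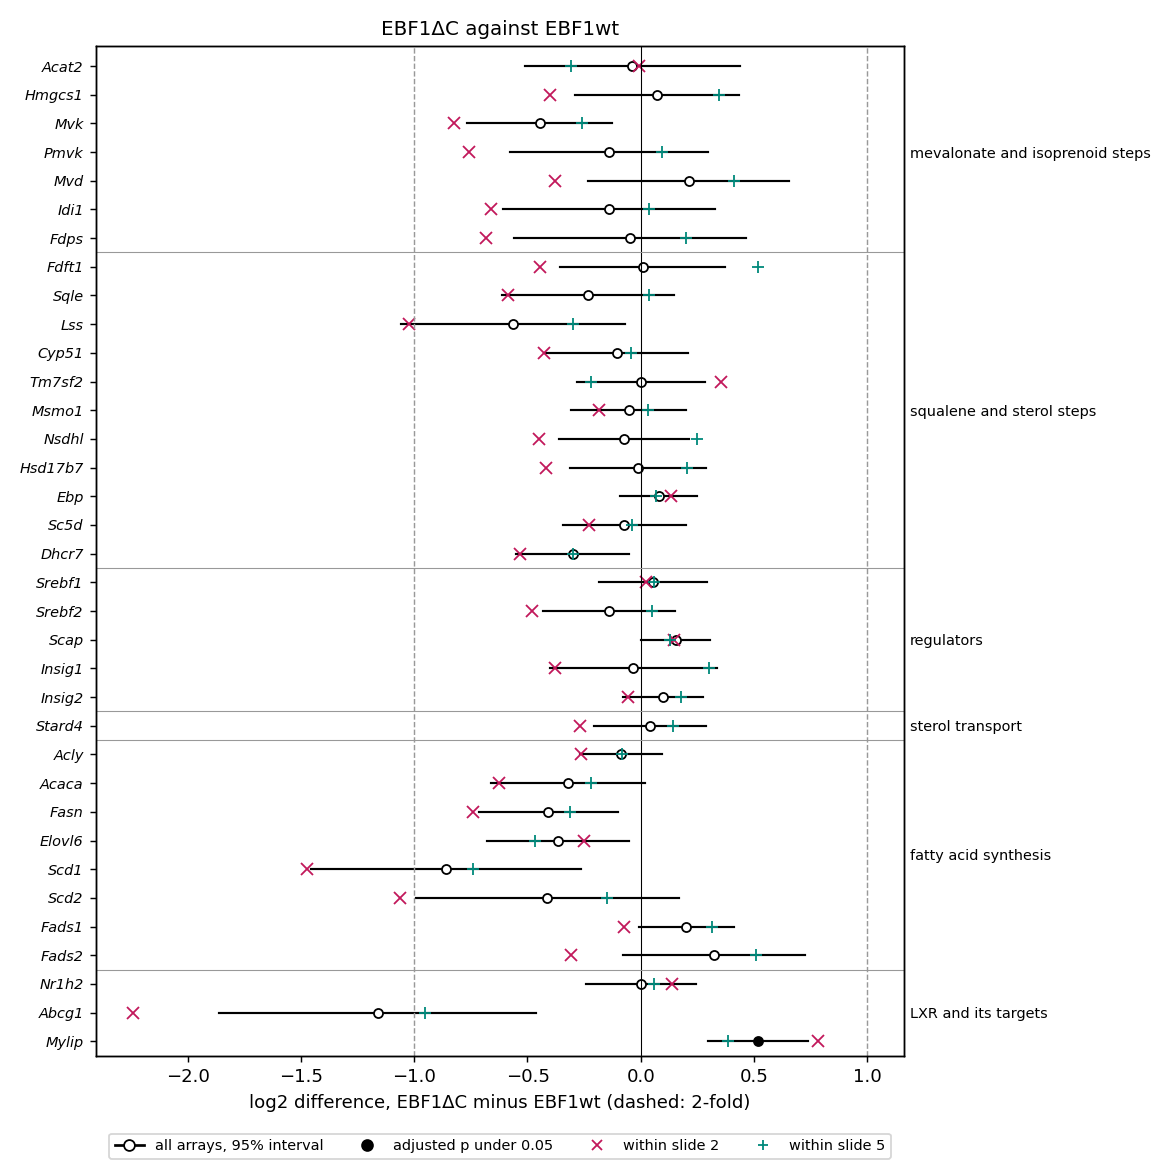
Difference EBF1ΔC minus EBF1wt of each tested member (x axis, log2) with its 95% interval from the limma model; the filled point has adjusted p under 0.05, crosses and plus signs are the differences within slides 2 and 5, and dashed lines mark 2-fold. Mylip is the 1 filled point, Abcg1 lies past 2-fold with an open point, and slide 2 lies to the left of slide 5 for 28 of 35 members.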

How the data were processed

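Cy3-labelled cRNA of total RNA was hybridised to one-colour Agilent arrays. Spot intensity was deposited as Feature Extraction output (version 10.5.1.1 per the file headers, 9.1 per the submitters' processing notes), background-subtracted and not normalized between arrays. The authors also deposited log2 values, whose processing is not stated; they have the same maximum on every array, medians near 6.74 and a correlation of 0.996 to 0.997 with quantile-normalized log2(signal + 50), and served as an alternative. Control and outlier spots were left out, spots of a probe averaged, log2 signal centred on each array's 75th percentile, and probes kept when well above background on all 3 arrays of a group (22348). The probe with the highest mean stood for its gene. All 9 arrays were fitted in limma 3.58.1 (R 4.3.3), with 6 residual degrees of freedom, two-sided, Benjamini-Hochberg over 12039 genes, after a test on simulated data. Array number limits precision. Gene names followed RefSeq where an accession or symbol matched (33654 of 41174 probes). Array values are given for up to 8 called members of largest difference per comparison and for Srebf1, Srebf2, Insig1, Insig2, Scap and Nr1h2; Scd1 was added after its values were seen. Members and lists were chosen with earlier results of these data known. The alternatives were other background corrections, scalings, filters, probe rules, blocks, weights and left-out arrays.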

Additional observations from a re-analysis of the deposited data

Results flagged for a closer look

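The difference between the 2 EBF1 forms themselves passed the test for 1 member, Mylip, at 0.5183 log2 higher in EBF1ΔC (limma adjusted p = 0.015, 3 of 3 EBF1ΔC arrays above all EBF1wt arrays), which is under 2-fold. That is 1 of 35, where 9.03% of all genes passed, and the adjusted p was above 0.05 with median scaling (0.26), with no filter on dim probes (0.056), with only the 2 groups fitted (0.054) and with slide as a fixed block (0.16). The difference was 0.36 with median scaling and 0.58 with the fixed block, which leaves fewer residual degrees of freedom.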

How the results depend on the processing

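Over the settings tried, EBF1wt against Mock kept 13 to 18 members called (15 in the main setting) and EBF1ΔC against Mock 17 to 20 (18), except as follows. Scaled to the median, which shifts every gene by 0.70, 0.55 and -0.16 in the 3 comparisons, 8, 10 and 1 members were called. The share of all genes called under that scaling is not given here. The member medians were -0.12, -0.51 and -0.21, against 0.82, 0.65 and -0.16 over all genes. By adjusted p alone 31, 33 and 1 passed, against 66.5%, 64.2% and 9.03% of all genes. Quantile normalisation gave an EBF1wt median of -1.03, and the mean of a gene's probes medians of -0.99 and -1.20. In EBF1ΔC against EBF1wt, 1 member (Abcg1) in place of 0 was called with normexp and quantile, the authors' deposited values, probes well above background on all 9 arrays, the replicate block, and slide as a random block (added after seeing the data). Leaving out 1 array in turn gave 13 to 18, 17 to 19 and 0 to 1 called, and medians of -1.02 to -0.75, -1.07 to -0.97 and -0.14 to 0.05.

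The replicate numbers did not pair the arrays (same-number correlations of deviations -0.18 to 0.12), and the replicate block gave 15, 18 and 1 called. Slide as a fixed block could be fitted for EBF1ΔC against EBF1wt alone and gave 0 called there, with fewer residual degrees of freedom than the main fit.

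Among called members and regulators (with Nr1h2), sign changes were met only by the uncalled, and the cause was not tested beyond the shift above. With median scaling, 9, 3 and 9 of the 35 members changed sign in the 3 comparisons. Scaled to the median, EBF1wt against Mock gave 0.017 for Insig1, 0.48 for Insig2, 0.67 for Srebf1 and 0.0088 for Srebf2. EBF1ΔC against Mock gave 0.42 for Insig2. EBF1ΔC against EBF1wt gave -0.058 for Insig2, -0.16 for Nr1h2, -0.0040 for Scap and -0.10 for Srebf1. Srebf1 in EBF1ΔC against Mock turned to -0.15 with normexp and quantile, -0.16 with quantile alone and -0.13 with the authors' deposited values. In EBF1ΔC against EBF1wt, array weights gave 0.071 for Insig1 and -0.048 for Nr1h2. Leaving out 1 array in turn, Srebf1 ran from -0.11 to 0.028 in EBF1wt against Mock, from -0.053 to 0.098 in EBF1ΔC against Mock and from -0.022 to 0.13 between the EBF1 forms. Between the EBF1 forms, Insig1 ran from -0.14 to 0.14, Nr1h2 from -0.070 to 0.059 and Srebf2 from -0.23 to 0.021.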
